A study of Mus musculus with 26 samples.

Results

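Cells hold on to the matrix and to each other through a small set of membrane receptors, and 44 genes for integrins, cadherins and other cell adhesion receptors were followed here in C2C12, a mouse myoblast line that withdraws from the cell cycle and fuses into myotubes in differentiation medium. The 44 were taken by symbol, after the Ensembl gene identifiers of the count files were matched to GENCODE M21, from 55341 genes counted in each of 26 RNA-Seq libraries. They comprise 12 integrin alpha subunits, 7 integrin beta subunits, the beta1 cytoplasmic binder Itgb1bp2, 8 cadherins, 11 receptors of the immunoglobulin superfamily, the hyaluronan receptor Cd44 and 4 syndecans. The experiments asked how loss or gain of SMYD3, a lysine methyltransferase, alters gene expression at the onset of muscle differentiation.

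In the siRNA experiment, parental C2C12 cells received siCtrl, siSMYD3#1 or siSMYD3#2 and were collected at 0 h, when confluent cells were switched to differentiation medium, or 24 h later, with 3 libraries per condition. The study's methods describe 2 transfections, on growing cells and again 24 h later at induction. Time in differentiation medium therefore cannot be told apart from time after the second transfection. In each condition 1 library came from RNA extracted with TRIzol at a lower passage and 2 from RNA extracted with NucleoSpin at a higher passage, so extraction and passage cannot be told apart. In the overexpression experiment, pREV-SMYD3 CL5, a single clone that carries HA-Flag-tagged SMYD3 in a retroviral vector, was compared with a line carrying the Empty vector (pREV), with 2 libraries per line and time point, all extracted with TRIzol. A difference between these lines is therefore a difference between 1 clone and its control line. The study's methods call the replicates biological, while the labels do not say whether they came from separate cultures, and p-values measure the spread between these libraries. Levels are CPM, the usual depth-normalised read count, on library sizes scaled by the trimmed mean of M values (TMM), set separately in each experiment. A member was called when its adjusted p in edgeR's quasi-likelihood test, corrected over all genes tested, was under 0.01. Since these are bulk samples, fewer cells of a type and less RNA per cell cannot be told apart.

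Integrins are heterodimers of 1 alpha and 1 beta subunit: the alpha chain largely sets the ligand (laminin, collagen, fibronectin), while the beta tail binds the cytoplasmic proteins that link to actin. Myoblasts rely on fibronectin receptors during growth, and differentiating muscle comes to use alpha7beta1, its characteristic laminin receptor. Cadherins join like cells through calcium-dependent contacts, immunoglobulin-type receptors such as NCAM and the nectins mediate contacts without calcium, and syndecans are heparan sulphate proteoglycans that act as co-receptors for matrix and growth factors. N-cadherin and M-cadherin, the classical cadherins of myoblasts, were not among the 44.

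The siRNA strands are shown because 6 members differed between the libraries of the 2 siRNAs against Smyd3. The antisense strands without their overhangs read 5′ to 3′ as below, with the seed, bases 2 to 8, in capitals.
siSMYD3#1: gUUGGGGUcacagcuguga
siSMYD3#2: uCAAAUCUucaaucaggcu
siCtrl: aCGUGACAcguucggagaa
The 3 strands carried 3 different seeds. Both target sites were in coding sequence of Smyd3 on the minus strand of GRCm38 chromosome 1, in exon 7 for siSMYD3#1 (chr1:179092935-179092953) and in exon 12 for siSMYD3#2 (chr1:178957505-178957523).

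Of the 44 members, 28 had a promoter in the RefSeq table of build GRCm38.p6, in 31 windows covering the 250 bases before a transcription start. The E-box CANNTG, the core recognised by MyoD and myogenin, was searched on both strands, which read the same, and was present in 23 of the 31 windows (74.2%), against 66.2% of all 32851 windows of this length. The form CAGCTG was in 4 windows (12.9%, against 13% of all), and CAGGTG or its complement CACCTG in 11 (35.5%, against 17.2%); both forms are also counted in CANNTG. The CCCTCC element described for SMYD3, or its complement GGAGGG, was in 19 windows (61.3%, against 35.2%). The study also names GAGGGG for SMYD3, which was not searched. Windows were not matched for base composition, and those of L1cam overlap each other. These are matches of letters and not binding sites. Windows of 3 members that changed are printed with E-boxes in capitals: Itga4, which had one of the largest rises in siCtrl cells, Itgb5, whose window held 3 E-boxes, and Cd44, whose window held none. They lie at chr2:79255176-79255425 on the plus strand, chr16:33829415-33829664 on the plus strand and chr2:102901666-102901915 on the minus strand, upstream of the annotated gene and over no annotated exon.
Itga4: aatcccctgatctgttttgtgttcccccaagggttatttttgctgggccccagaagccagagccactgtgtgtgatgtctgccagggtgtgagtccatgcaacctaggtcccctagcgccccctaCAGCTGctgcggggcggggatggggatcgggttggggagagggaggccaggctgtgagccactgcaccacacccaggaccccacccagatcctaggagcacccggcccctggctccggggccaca
Itgb5: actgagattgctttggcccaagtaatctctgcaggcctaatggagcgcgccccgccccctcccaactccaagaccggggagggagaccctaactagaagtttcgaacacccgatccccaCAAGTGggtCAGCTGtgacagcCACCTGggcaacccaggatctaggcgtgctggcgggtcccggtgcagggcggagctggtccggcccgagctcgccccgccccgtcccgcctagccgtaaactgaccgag
Cd44: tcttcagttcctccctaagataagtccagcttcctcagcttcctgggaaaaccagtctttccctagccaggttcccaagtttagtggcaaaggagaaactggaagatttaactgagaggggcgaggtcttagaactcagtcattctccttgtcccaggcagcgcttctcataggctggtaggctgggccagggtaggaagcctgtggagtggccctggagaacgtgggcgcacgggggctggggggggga
The Itga4 window held 1 E-box, of the form CAGCTG. The Itgb5 window held 3, of which 1 was of this form and 1 of the form with CC at its centre.

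Total counts per library ranged from 14315193 to 60398170 in the siRNA experiment and from 21124675 to 67853386 in the overexpression experiment, and 0 of 325 pairs of libraries were identical. Smyd3, the targeted gene, measured 21.6, 20.5 and 19.5 CPM in siCtrl, 19, 19.3 and 16.9 in siSMYD3#1 and 6.37, 7.56 and 8.93 in siSMYD3#2 at 0 h (TRIzol library first here and throughout). At 24 h it measured 20.7, 17.8 and 19.9 CPM in siCtrl, 19.3, 15.2 and 15.1 in siSMYD3#1 and 9.65, 5.46 and 5.37 in siSMYD3#2. It was called lower with siSMYD3#2 (log2 fold change -1.51 ± 0.17, SE, adjusted p = 5.06e-05 at 24 h), whereas with siSMYD3#1 the difference was log2 fold change -0.24 ± 0.16 (adjusted p = 0.414), and the knockdown was not detected in the RNA of libraries labelled siSMYD3#1. The study also followed SMYD3 protein by western blot and Smyd3 RNA by qPCR after siRNA, and those measurements are not part of these libraries. In the overexpression experiment Smyd3 measured 19.2 and 16.7 CPM in vector and 16.9 and 27.1 in CL5 cells at 0 h, and 17.1 and 18.2 in vector and 24.3 and 21 in CL5 cells at 24 h, with no call. Whether the counts include the transgene is not known because the species of its cDNA was not stated. The names siSMYD3#1 and CL5 stand from here on for the libraries that carry those labels. The 4 myoblast markers Myod1, Myf5, Des and Msc had counts in every library, Msc as few as 2. Of markers of other cell types, Epcam (epithelium, 0 counts), Tie1 (endothelium, at most 1 count), Rbfox3 (neurons, at most 1) and Itgam (leukocytes, at most 3) were at or near 0. Others on the same lists were present: Krt8 reached 224 counts in a library, Cd68 186, Kdr 57, Itgb2 48 and Tek 43. Between 0 h and 24 h Krt8, an epithelial keratin, was called up in all 3 siRNA treatments (log2 fold change 1.94 ± 0.48 in siCtrl), the endothelial receptor Tek in siCtrl (log2 fold change 2.4 ± 0.67) and Kdr with siSMYD3#1 (log2 fold change 2.41 ± 0.61), and their part in the member changes was not tested. Over all 26 libraries the summed levels of 5-gene lists ranged from 0.193 to 3.81 CPM for endothelium, 0.183 to 7.14 for epithelium and 0 to 1.66 for adipocytes. The leukocyte list (11.7 to 70.6 CPM) was mostly Itgb7, itself a member here, and the glial and neuronal list (36.1 to 142 CPM) mostly Tubb3. The summed level of 6 differentiation genes (Myog, Myh3, Ckm, Acta1, Mymk, Tnnt1) was between 11.6 and 14.7 CPM in siCtrl at 0 h and between 488 and 1330.0 at 24 h, when it was between 103 and 133 with siSMYD3#1 and between 211 and 250 with siSMYD3#2. It was between 106 and 520.0 CPM in CL5 and between 4.61 and 8.57 in vector cells at 0 h, and between 968 and 994 in CL5 and between 36.2 and 52.5 in vector cells at 24 h. The part of these differentiation genes in the member differences below was not tested.

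Per kilobase of exon, the level of the members spanned several orders of magnitude. Bsg, the basigin chaperone of lactate transporters, and Itgb1, the beta subunit shared by most alpha chains of muscle, stood highest, with means over the 10 conditions of 297 and 279.5 CPM per kilobase. Their ranges over conditions, 229.6 to 464 and 215 to 363, overlapped, so their order was not separated. Sdc2 (120.3), the fibronectin receptor subunit Itga5 (115) and Cd44 (83.2) followed, again with overlapping ranges. Among laminin-binding alpha subunits Itga7 had 51.1 and Itga3 32.2, with overlapping ranges over conditions. Itga10, the highest of the collagen-binding alpha subunits, had a mean of 2.58 over conditions from 0.199 to 16.4, the highest being CL5 cells at 24 h, and Itga4, the receptor subunit for VCAM1 and fibronectin, had 0.196. Of the cadherins here Cdh13, a cadherin anchored by a lipid rather than a cytoplasmic tail, was the highest with 6.0, above Cdh11 with 0.67 and the epithelial P-cadherin Cdh3 with 0.0592. Itgb1bp2, the muscle protein melusin, had 1.1. Because scaling was done separately in each experiment, this ranking across them is a description.

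**Figure D1:**
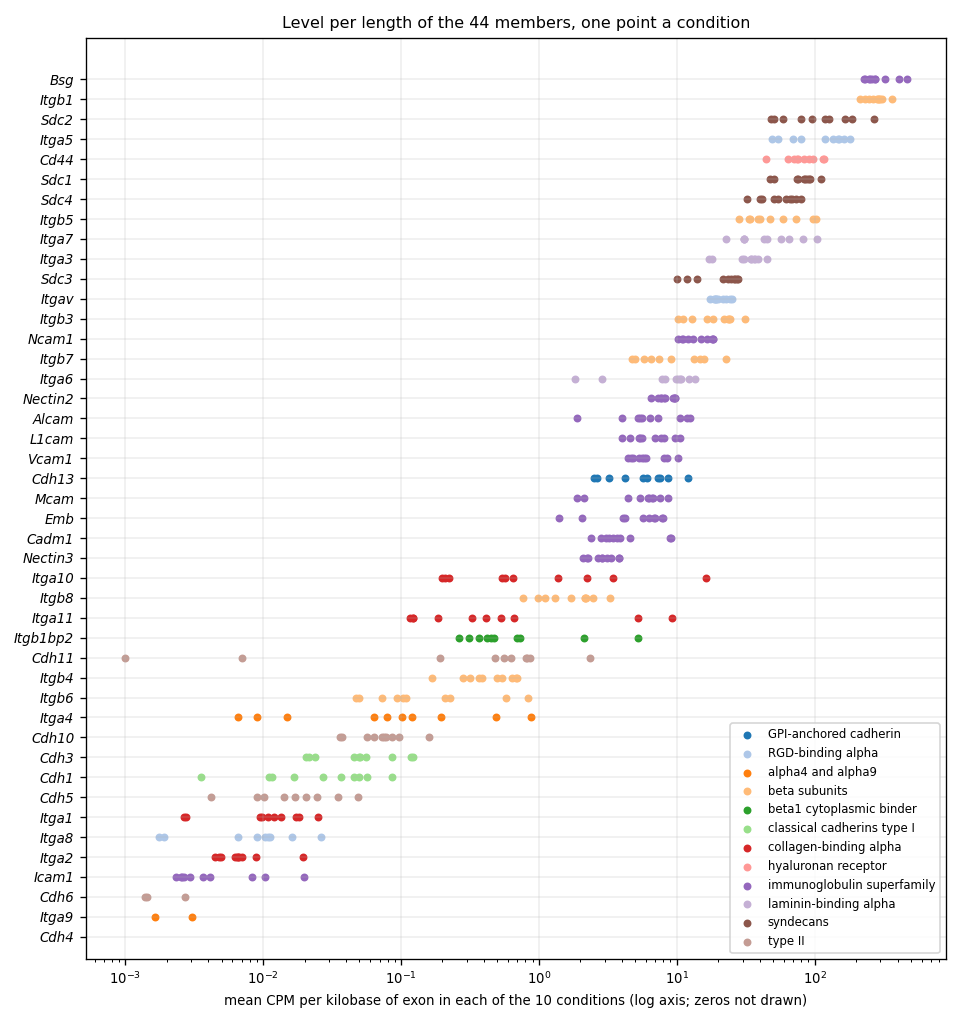
Mean CPM per kilobase of exon (log axis) of the 44 members, with 1 point for each of the 10 conditions, coloured by role and ordered by the mean over conditions; zeros are not drawn. Bsg (229.6 to 464) and Itgb1 (215 to 363) stand at the top, and Cdh4, with 0 counts in all libraries, stands at the bottom without a point.

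The low-count filter left 37 members testable in the siRNA experiment and 35 in the overexpression experiment. The 7 untested in both were the cadherins Cdh4, Cdh5 and Cdh6, the integrin subunits Itga2, Itga8 and Itga9, and Icam1. Cdh4, the R-cadherin of neurons and retina, had 0 counts in all 26 libraries, and Icam1, an endothelial and leukocyte ligand, had at most 3. In the siRNA libraries none of the 7 exceeded 7 counts. Cdh1 and Cdh3, the E- and P-cadherins, were untested in the overexpression experiment only, where no untested member exceeded 18 counts. Levels this low were near the counting limit, and a difference in these genes was not detectable at this depth.

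The library sets differed in many members before any siRNA was considered. Of the 37 tested members, 7 were lower in the TRIzol library in all 6 siRNA conditions by a mean of at least 1 on the log2 scale (Itga4, L1cam, Itga7, Cdh3, Nectin2, Mcam and Itga6), where 5.80% of all genes tested met this rule. The reverse held for 4 (Itga11, Cdh10, Itgb5 and Cadm1), where 8.32% of all genes did. The median size of the difference was 0.65 over the members and 0.34 over all genes tested. Itga4 showed the widest gap: at 0 h the TRIzol libraries of the 3 treatments held 0.11, 0.135 and 0.0483 CPM, against 1.26 to 2.62 CPM in the 6 NucleoSpin libraries, and the mean difference over the 6 conditions was -4.84 (log2). L1cam, a neural adhesion molecule that C2C12 also expresses, differed by -2.94, with 9.42, 52.5 and 61.7 CPM in siCtrl at 0 h. Itga7 differed by -1.74. In the opposite direction Itga11, the collagen receptor subunit of mesenchymal cells, was higher in TRIzol libraries by 3.28. The vector line, extracted with TRIzol only, held 62.3 and 56.5 CPM of L1cam and 229 and 265 CPM of Itga7 at 0 h, above every TRIzol siRNA library at 0 h for both genes. Other members did not follow this. Itga4 held 0.0628 and 0.122 CPM and Itgb5 160 and 179 CPM in vector cells at 0 h, within the range of the TRIzol siRNA libraries at 0 h. The experiments were scaled separately, and the part of extraction in these levels was not tested. Desmin (Des), a muscle filament marker, was also low in the TRIzol libraries, with 67.3, 842 and 945 CPM in siCtrl at 0 h. So were the myoblast markers Myod1, with 6.41, 27.4 and 31.4 CPM, and Msc, with 0.0736, 15.3 and 14.1 CPM in the same libraries. Msc was also called lower with siSMYD3#1 than with siCtrl at 24 h (log2 fold change -1.86 ± 0.28, SE, adjusted p = 0.00029). The part of these markers in the member differences was not tested. The fits below carried extraction as a covariate, and the differences within each library set are given beside them where they disagreed in sign.

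**Figure D2:**
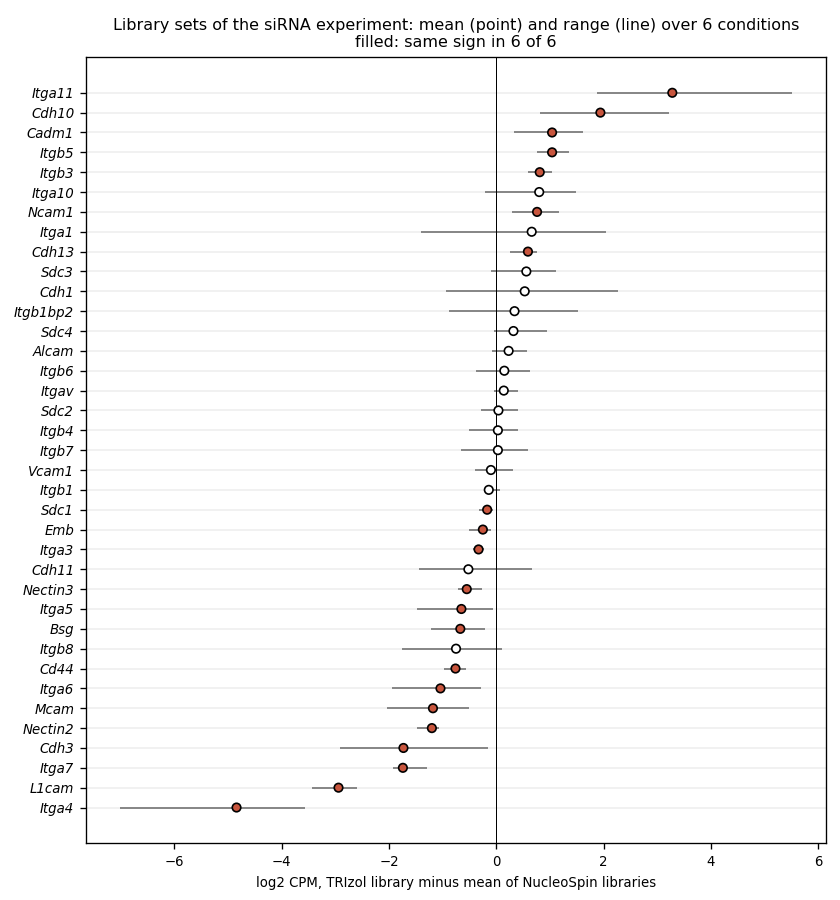
Difference in log2 CPM between the TRIzol library and the mean of the NucleoSpin libraries for the 37 tested members of the siRNA experiment, as the mean (point) and range (line) over the 6 conditions; filled points had the same sign in all 6. Itga4 (-4.84) and L1cam (-2.94) lie farthest left and Itga11 (3.28) farthest right.

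During the first 24 h of differentiation in siCtrl cells, 14 of the 37 tested members changed, 9 up and 5 down. The background was 14.6% of all genes tested called up and 14.8% called down. The median log2 fold change was 0.29 over the members and 0.03 over all genes. All 14 had the same sign in the TRIzol library and in the NucleoSpin libraries. Of the 12 integrin alpha subunits, 9 were tested, 3 rose and 0 fell; of the 7 beta subunits, 0 rose and 2 fell; of the 5 tested cadherins 1 rose; and of the 10 tested immunoglobulin-type receptors 2 rose and 3 fell.

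The alpha subunit with the largest change was Itga4 (chr2:79255426-79333123 in GRCm38), which went from 0.11, 2.27 and 2.62 to 0.281, 18.5 and 18.2 CPM (log2 fold change 2.77 ± 0.35, SE, adjusted p = 6.82e-06). The rise was carried by the NucleoSpin libraries, where it reached 2.91 on the log2 scale, against 1.21 in the TRIzol pair, whose level stayed under 1 CPM. Of its exon bases, 1124 are shared with Cerkl on the opposite strand. Itga7, the muscle laminin receptor subunit, rose from 86.8, 321 and 334 to 192, 698 and 684 CPM (log2 fold change 1.1 ± 0.11, SE, adjusted p = 3.8e-07), with a difference of 1.14 in the TRIzol and 1.08 in the NucleoSpin libraries on the log2 scale. Itga10, a collagen receptor best known from cartilage, rose from 1.18, 1.24 and 0.84 to 4.96, 1.93 and 1.89 CPM (log2 fold change 1.35 ± 0.33, SE, adjusted p = 0.00276). It shares 1739 of its 5186 exon bases with the overlapping gene Gm42957 on the same strand, so its counts are uncertain to that extent, and with NucleoSpin libraries alone its adjusted p was 0.0172. Itga5 was measured at 558, 572 and 640.3 CPM at 0 h and 339, 944 and 933 at 24 h and had no call: the NucleoSpin libraries lay higher at 24 h and the TRIzol library lower.

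Itgb1, the most abundant beta subunit, was level, with 813, 939.8 and 876 CPM at 0 h and 885, 956 and 988 at 24 h (log2 fold change 0.11 ± 0.08, not called). Itgb3, which pairs with alphaV, fell (log2 fold change -0.47 ± 0.11, SE, adjusted p = 0.00147). Itgb7, a partner of alpha4 best known from lymphocytes, fell as well (log2 fold change -0.97 ± 0.23, SE, adjusted p = 0.0032), and leaving out 1 library ended this call for 2 of 18 libraries. Itgb1bp2, melusin, which binds the beta1 tail in striated muscle, rose from 0.994, 0.293 and 0.394 to 2.43, 4.56 and 4.44 CPM (log2 fold change 2.85 ± 0.45, SE, adjusted p = 5.82e-05). All 3 libraries at 24 h were above all 3 at 0 h.

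Cdh13, T-cadherin, rose from 38.9, 23.5 and 27.1 to 90.6, 57.3 and 57.2 CPM (log2 fold change 1.19 ± 0.11, SE, adjusted p = 2.31e-07). Cdh11, a cadherin of mesenchymal cells, was not called, at 3.06, 5.74 and 6.14 CPM and then 9.01, 6.79 and 5.62, with the TRIzol library higher at 24 h and the NucleoSpin libraries overlapping. Alcam, a homophilic immunoglobulin-type receptor, fell from 90.7, 86.1 and 74.9 to 44.2, 34 and 33.4 CPM (log2 fold change -1.18 ± 0.12, SE, adjusted p = 4.59e-07), the largest fall among the called members. Emb, embigin, a relative of basigin, fell from 41.9, 49.3 and 50.8 to 26, 28.6 and 32.7 CPM (log2 fold change -0.70 ± 0.11, SE, adjusted p = 4.75e-05), and Nectin3 fell by 0.74 on the log2 scale. Ncam1, long used as a marker of myogenic cells, rose by 0.89 and L1cam by 0.63 on that scale. The L1cam rise was 0.84 in NucleoSpin and 0.10 in TRIzol libraries. Bsg was measured at 361, 461 and 535 CPM and then 312, 695 and 761, with no call.

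Sdc2 rose from 168, 187 and 184 to 535, 396 and 408 CPM (log2 fold change 1.31 ± 0.14, SE, adjusted p = 7.37e-07), with no overlap between time points, and was the one syndecan of 4 to be called. Cd44 rose from 377, 686 and 645 to 481, 905 and 981 CPM (log2 fold change 0.46 ± 0.09, SE, adjusted p = 0.000552), an increase within each library set even though the TRIzol library at 24 h lay below the NucleoSpin libraries at 0 h. Without the extraction covariate in the model 5 members were called in place of 14.

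**Figure D3:**
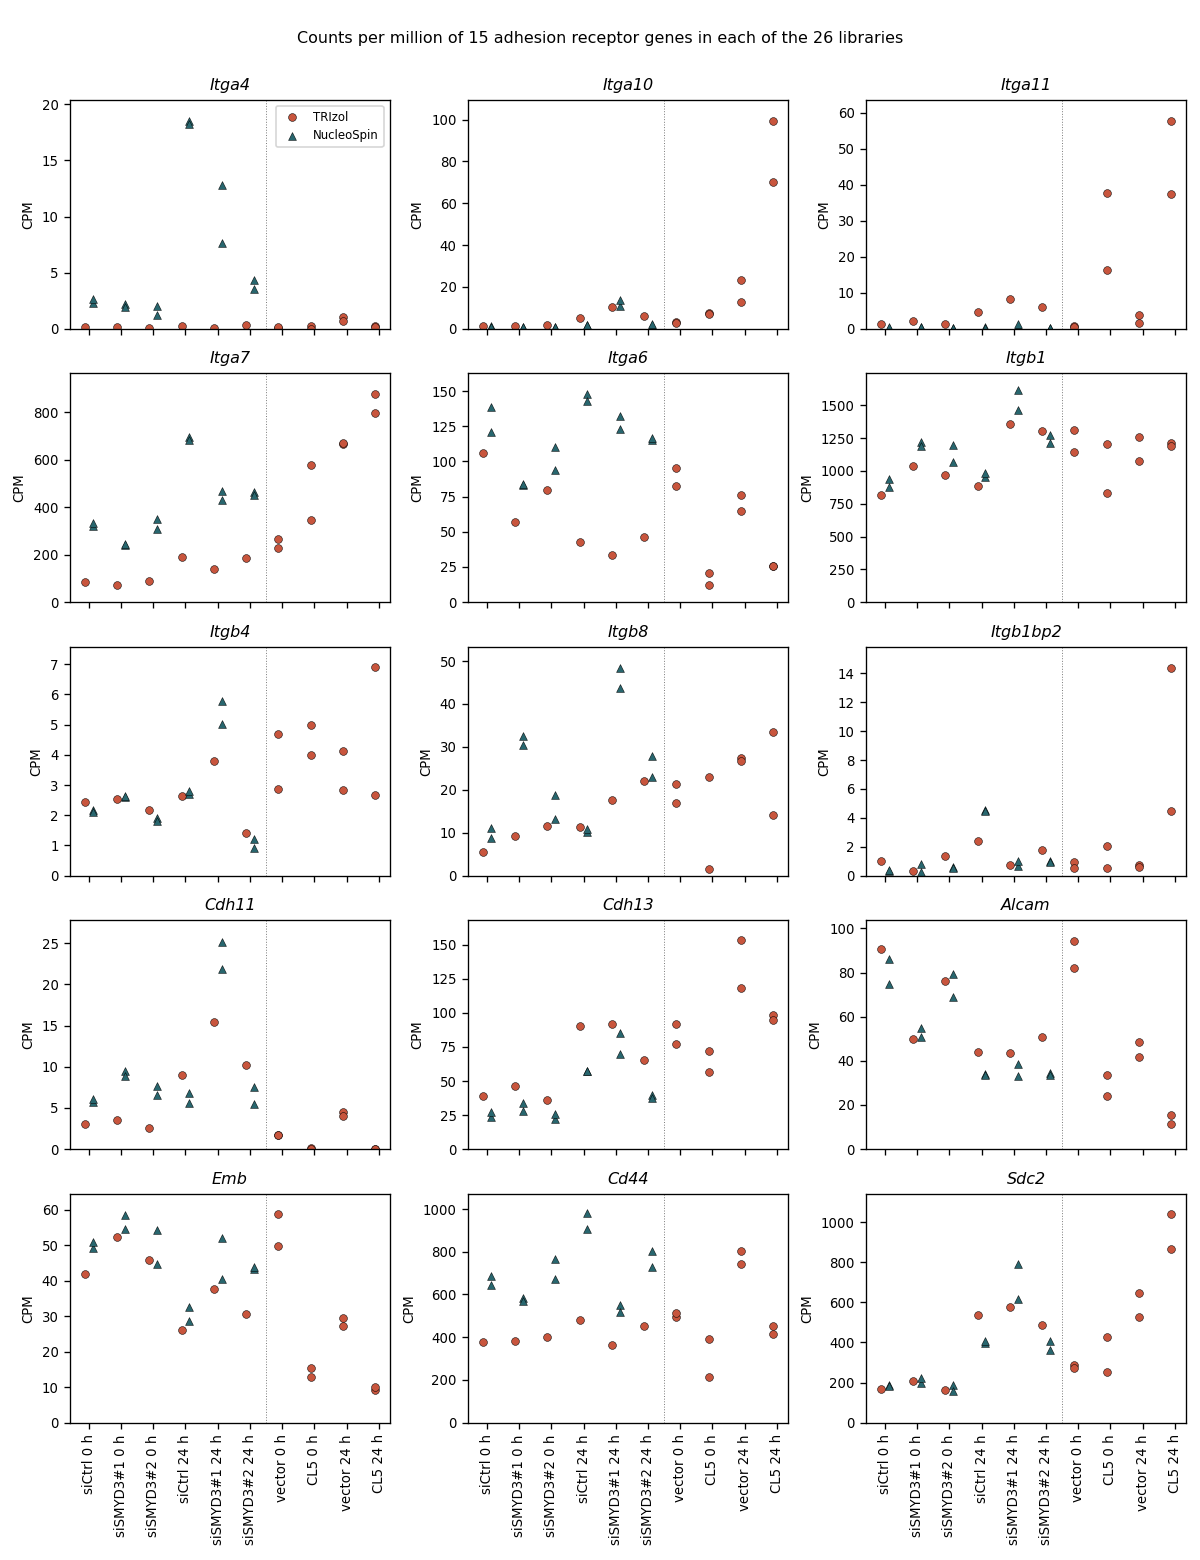
CPM of 15 named members in each of the 26 libraries (linear axes from 0), by condition, with circles for TRIzol and triangles for NucleoSpin libraries; the dotted line separates the siRNA experiment (left) from the overexpression experiment (right), which were scaled separately. Itga4 passes 5 CPM only in NucleoSpin libraries at 24 h, and Itga10 is highest in CL5 cells at 24 h (99.3 and 70.4 CPM).

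Differentiation over the same 24 h was also followed under each siRNA. In libraries labelled siSMYD3#1, 14 members changed, 10 up and 4 down (background 12.7% up and 12.7% down), and with siSMYD3#2 9 changed, 5 up and 4 down (background 9.11% up and 9.88% down). Cdh13, Itga10, Itga7 and Sdc2 rose and Alcam and Itgb7 fell in all 3 treatments. Itga10 rose from 1.52, 0.623 and 0.946 to 10.5, 10.7 and 13.7 CPM in libraries labelled siSMYD3#1 (log2 fold change 3.6 ± 0.33, SE, adjusted p = 5.04e-07) and from 1.74, 0.959 and 0.80 to 5.92, 1.82 and 2.42 CPM with siSMYD3#2 (log2 fold change 1.5 ± 0.33, SE, adjusted p = 0.00219). Itgb1bp2 was not called in either. Itga4 rose with siSMYD3#1 (log2 fold change 2.09 ± 0.37, SE, adjusted p = 0.000275), where the TRIzol pair went the other way (-0.99 on the log2 scale) at levels under 0.2 CPM. Sdc4, a focal adhesion syndecan, fell under both siRNAs (log2 fold changes -0.78 and -0.74) and was not called in siCtrl (log2 fold change -0.32 ± 0.14). Cdh1 was called up with siSMYD3#2 from at most 1 count to at most 10 counts in a library: against a floor of 3 counts in each library at 0 h its level at 24 h was at least 1.86-fold higher, and its adjusted p was not available in DESeq2. Leaving out the first NucleoSpin library of siSMYD3#1 at 0 h lowered the count there to 9. The difference between treatments in these changes was tested only as the interaction given after the 0 h comparison.

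At 24 h the libraries labelled siSMYD3#1 differed from siCtrl in 12 of 37 tested members, 9 higher and 3 lower, where 2.91% of all genes tested were called higher and 2.94% lower. The median log2 fold change over the members was 0.29, and over all genes it was 0. Beta subunits made up 5 of the 9 higher members: Itgb1, Itgb3, Itgb4, Itgb5 and Itgb8. All 12 had the same sign in the TRIzol library and in the NucleoSpin libraries. With siSMYD3#2, 4 of 37 members were called, 1 higher and 3 lower (background 1.66% higher and 2.04% lower), and the median was 0.05. Of the 4 members called by edgeR with siSMYD3#2, Itga4 differed in sign between the library sets. DESeq2 gave 13 calls for siSMYD3#1 and 8 for siSMYD3#2, the latter 4 higher and 4 lower. The shares of all genes called by DESeq2 are not given, so its counts are not read as results about the members. Both comparisons share the siCtrl libraries, so their values are given side by side and their overlap is not read as independent.

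Itgb1 (chr8:128685654-128733200) was called higher with both siRNAs. Against 885, 956 and 988 CPM in siCtrl it measured 1356, 1466 and 1619 in libraries labelled siSMYD3#1 (log2 fold change 0.65 ± 0.08, SE, adjusted p = 3.5e-05) and 1302, 1210.5 and 1277 with siSMYD3#2 (log2 fold change 0.43 ± 0.08, SE, adjusted p = 0.00267). All 6 libraries of both siRNAs were above all 3 of siCtrl. The edgeR call for siSMYD3#2 was lost with NucleoSpin libraries alone (adjusted p = 0.0129) and with all 26 libraries in 1 fit (adjusted p = 0.0976). Leaving out 1 library ended it for 4 libraries. Itgb3 and Itgb5, the beta partners of alphaV, were higher with siSMYD3#1 by 0.77 and 0.85 on the log2 scale, and with siSMYD3#2 the values were log2 fold change 0.32 ± 0.11 and log2 fold change 0.28 ± 0.11, not called. Itgb8, which with alphaV binds latent TGF-beta, measured 11.4, 10.3 and 11 CPM in siCtrl and 17.7, 43.6 and 48.4 with siSMYD3#1 (log2 fold change 1.6 ± 0.31, SE, adjusted p = 0.00381). With siSMYD3#2 it measured 22.2, 23 and 27.9 CPM, each library above all of siCtrl, at an adjusted p of 0.0369.

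Itgb4, the beta subunit that joins alpha6 at hemidesmosomes of epithelium, moved in opposite directions. It measured 2.64, 2.72 and 2.81 CPM in siCtrl, 3.8, 5.76 and 5.02 with siSMYD3#1 (log2 fold change 0.84 ± 0.20, SE, adjusted p = 0.00874) and 1.41, 0.91 and 1.21 with siSMYD3#2 (log2 fold change -1.18 ± 0.22, SE, adjusted p = 0.00249), without overlap among the 3 treatments. The call for siSMYD3#1 was close to the threshold: its adjusted p was 0.0126 with the replicate number as a block, and it was lost on leaving out any of 12 of the 18 libraries. Of its exon bases, 537 are shared with a gene on the opposite strand.

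Among alpha subunits, Itga10 reached 10.5, 10.7 and 13.7 CPM with siSMYD3#1, against 4.96, 1.93 and 1.89 in siCtrl (log2 fold change 2.12 ± 0.30, SE, adjusted p = 0.000116), and 5.92, 1.82 and 2.42 with siSMYD3#2 (log2 fold change 0.20 ± 0.31, not called). The siSMYD3#1 libraries were above all others, and those of siSMYD3#2 overlapped siCtrl. Itga3, a laminin receptor subunit, was higher with siSMYD3#1 (log2 fold change 0.54 ± 0.09, SE, adjusted p = 0.000745). Itga7 measured 139, 468 and 431 CPM with siSMYD3#1, lower than siCtrl (log2 fold change -0.57 ± 0.11, SE, adjusted p = 0.00164), and 186, 464 and 451 with siSMYD3#2 (adjusted p = 0.0271). Itga4 was lower with siSMYD3#2, at 0.314, 4.31 and 3.58 CPM (log2 fold change -1.97 ± 0.35, SE, adjusted p = 0.00191). That call rested on the NucleoSpin libraries, which differed by -2.22 on the log2 scale against 0.16 in the TRIzol pair. With siSMYD3#1 it measured 0.0613, 12.8 and 7.64 CPM and was not called (log2 fold change -0.87 ± 0.32). Itga5 had no call in either, at 495, 1108 and 1068 CPM with siSMYD3#1 and 481, 993 and 951 with siSMYD3#2.

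Itgb1bp2 was lower with siSMYD3#1, at 0.736, 0.689 and 0.991 CPM (log2 fold change -2.31 ± 0.45, SE, adjusted p = 0.00209), and measured 1.8, 1.03 and 0.923 CPM with siSMYD3#2 (adjusted p = 0.0244). In each of these 6 libraries it was below all 3 siCtrl libraries, and the summed differentiation markers given above were also lower in all of them than in siCtrl. The part of those markers in this difference was not tested.

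Of the remaining receptors, Cd44 was lower with siSMYD3#1 at 363, 550.4 and 520.0 CPM (log2 fold change -0.68 ± 0.09, SE, adjusted p = 6.62e-05) and measured 450.5, 728 and 802 with siSMYD3#2 (log2 fold change -0.24 ± 0.09, not called). Sdc2 was higher with siSMYD3#1 at 574, 616 and 789 CPM (log2 fold change 0.57 ± 0.13, SE, adjusted p = 0.00897), a call that was lost with the replicate block (adjusted p = 0.0138) and on leaving out any of 13 of the 18 libraries, and measured 486, 409 and 364 with siSMYD3#2. Emb was higher with siSMYD3#1 at 37.7, 40.5 and 51.9 CPM (log2 fold change 0.57 ± 0.11, SE, adjusted p = 0.00185) and measured 30.5, 43.3 and 43.8 with siSMYD3#2 (adjusted p = 0.0225). Cdh13 was lower with siSMYD3#2 at 65.5, 39.5 and 37.8 CPM (log2 fold change -0.53 ± 0.11, SE, adjusted p = 0.0057) and measured 91.6, 69.7 and 85 with siSMYD3#1, not called. Cdh11 measured 15.4, 21.8 and 25.2 CPM with siSMYD3#1 and 10.2, 7.52 and 5.48 with siSMYD3#2 (adjusted p = 0.0199 and 0.902). Each siSMYD3#1 library was above all of siCtrl. Alcam measured 43.4, 33.3 and 38.5 CPM with siSMYD3#1 and 51, 34.4 and 33.6 with siSMYD3#2, with no call. Bsg measured 361, 565 and 554 CPM with siSMYD3#1 and 314, 586 and 590.3 with siSMYD3#2, with no call.

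Itga6, Itga11 and Cdh3 had no call in any siRNA comparison. Itga6 measured 106, 139 and 121 CPM in siCtrl at 0 h and 42.5, 148 and 143 at 24 h, when it measured 33.3, 123 and 132 with siSMYD3#1 and 46, 116 and 116 with siSMYD3#2. Itga11 measured 1.21, 0.22 and 0.463 CPM in siCtrl at 0 h and 4.5, 0.394 and 0.131 at 24 h, and then 8.18, 0.798 and 1.2 with siSMYD3#1 and 6.16, 0.0606 and 0.173 with siSMYD3#2. Its TRIzol libraries were the high ones in each condition. Cdh3 stayed at or under 1.04 CPM in all 18 siRNA libraries.

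The counts at 24 h depended on the siCtrl libraries. Without the first or the second NucleoSpin library of siCtrl at 24 h, 6 and 7 members were called for siSMYD3#1 and 0 and 0 for siSMYD3#2, and 7 for siSMYD3#1 without its own second NucleoSpin library. Leaving out the first or the second NucleoSpin library of siSMYD3#2 left 1 and 0 calls for it. The NucleoSpin libraries alone gave 17 calls for siSMYD3#1 and 9 for siSMYD3#2. The shares of all genes called in these refits are not given, so the counts in this paragraph are not read as results about the members.

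**Figure D4:**
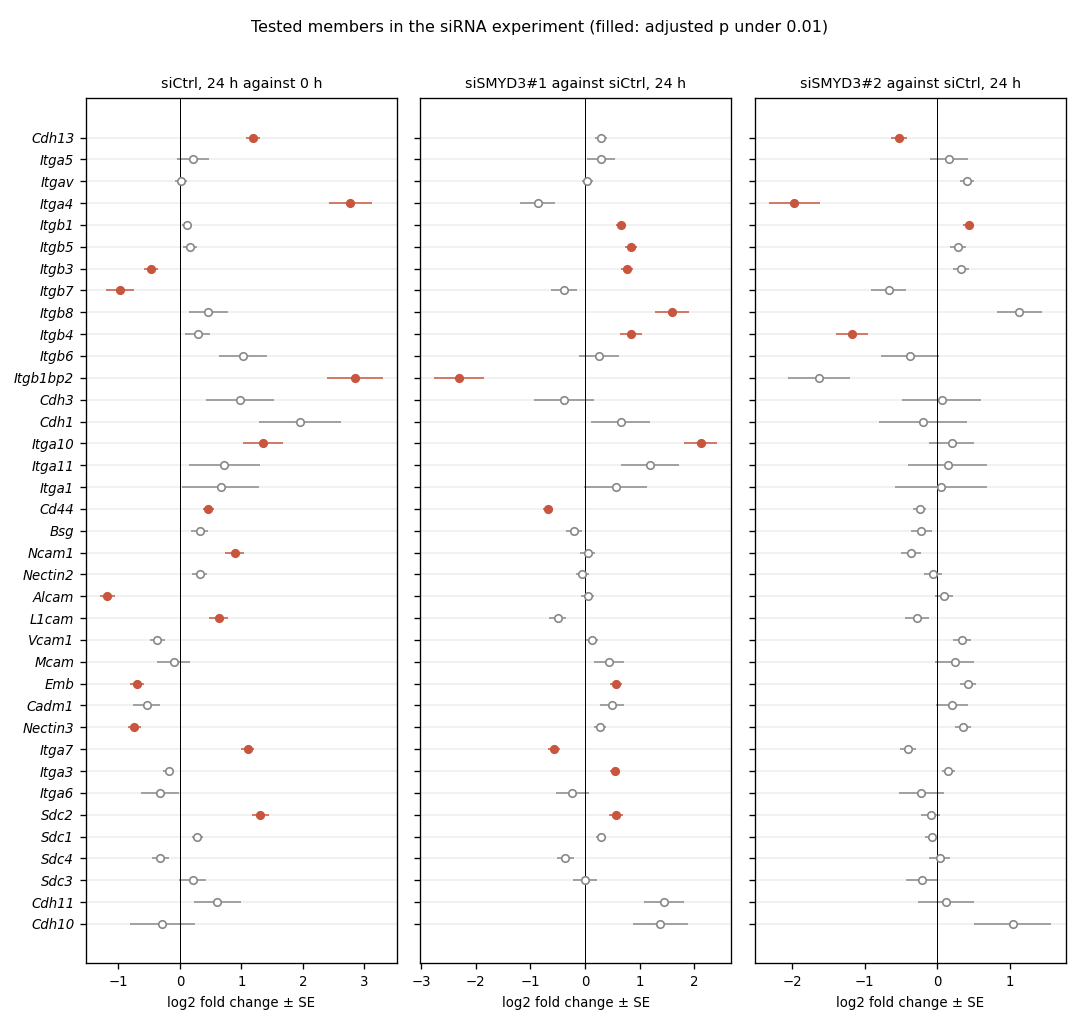
Log2 fold change ± SE of the 37 tested members in siCtrl at 24 h against 0 h (left) and in siSMYD3#1 (middle) and siSMYD3#2 (right) against siCtrl at 24 h, from edgeR; filled points have an adjusted p under 0.01. The middle panel has 9 filled points to the right of 0 and 3 to the left, and the right panel 1 and 3; both share the siCtrl libraries.

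At 0 h the libraries labelled siSMYD3#1 had 2 calls in edgeR, Itgb1 higher (background 0.575%) and Alcam lower (background 0.853%), whereas DESeq2 gave 5, 4 higher and 1 lower, and NucleoSpin libraries alone 5, 2 higher and 3 lower. Itgb1 measured 1041, 1222 and 1186 CPM against 813, 939.8 and 876 in siCtrl (log2 fold change 0.39 ± 0.08, SE, adjusted p = 0.0094), and this call was lost with the replicate block (adjusted p = 0.0145), without 16 of the 18 libraries in turn and with NucleoSpin libraries alone (adjusted p = 0.0105). Alcam measured 50.1, 51 and 54.8 CPM against 90.7, 86.1 and 74.9 (log2 fold change -0.68 ± 0.12, SE, adjusted p = 0.00229), with no overlap, and 76.1, 79.5 and 69.1 with siSMYD3#2. Itgb8 at 0 h measured 5.6, 11.1 and 8.8 CPM in siCtrl, 9.27, 32.6 and 30.4 with siSMYD3#1 (adjusted p = 0.0189) and 11.6, 18.8 and 13.1 with siSMYD3#2. With siSMYD3#2 0 members were called by edgeR (background 0.531%) and 0 by DESeq2, and 1 was called with NucleoSpin libraries alone. An unadjusted p under 0.05 in edgeR was seen in 9 members and in 1596 of all 15820 genes tested. Leaving out 1 library gave 0 to 3 calls for siSMYD3#1 and 0 for siSMYD3#2: for siSMYD3#1 the count was 0 without the first NucleoSpin library at 0 h of siCtrl or of siSMYD3#1, and 1 without any of 12 others. The change of each siRNA effect between 0 h and 24 h was tested as an interaction. It called 0 members for siSMYD3#1 in edgeR (background 0.215%) and 2 in DESeq2. For siSMYD3#2 it called 0 in edgeR (background 0.0190%) and 0 in DESeq2. For siSMYD3#1, 11 members and 1388 of all 15820 genes tested had an unadjusted p under 0.05 in edgeR. For siSMYD3#2 these were 11 members and 1585 genes. Itga10 came closest for siSMYD3#1 (log2 fold change 2.25 ± 0.47, SE, adjusted p = 0.0326), and the count was 1 without the TRIzol library of siSMYD3#1 at 24 h. Counts under alternatives in this paragraph have no share of all genes beside them and are not read as results about the members.

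The siRNAs were also compared directly with each other at 24 h. Of 37 members, 5 were higher with siSMYD3#1 (background 2.05%) and 1 was lower (background 1.31%). Itgb4 (log2 fold change 2.02 ± 0.22, SE, adjusted p = 1.99e-05) and Itga10 (log2 fold change 1.92 ± 0.30, SE, adjusted p = 0.000593) differed the most, followed by Cdh13 (log2 fold change 0.83 ± 0.11), Sdc2 (log2 fold change 0.66 ± 0.13) and Itgb5 (log2 fold change 0.57 ± 0.11), while Cd44 was lower (log2 fold change -0.44 ± 0.09). Their adjusted p ranged from 1.99e-05 to 0.00516. For Itgb1 the siRNAs differed by log2 fold change 0.22 ± 0.08, which was not called (adjusted p = 0.098). On leaving out any 1 of the 4 NucleoSpin libraries of these siRNAs at 24 h the count was 3, and with NucleoSpin libraries alone it was 14. The shares of all genes called in these refits are not given, so both counts describe the dependence on libraries only.

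In the overexpression experiment the CL5 clone differed from the vector line in 3 of 35 tested members at 0 h, 1 higher (background 0.465%) and 2 lower (background 0.606%), and in 1 at 24 h, 0 higher (background 0.376%) and 1 lower (background 0.589%). The median log2 fold change was -0.11 at 0 h and -0.24 at 24 h over the members, against -0.03 and 0.02 over all genes. Among the CL5 libraries at 0 h the spread was wide: the median size of the difference between the 2 libraries was 0.74 on the log2 scale over 32 members above 5 CPM, against 0.21 in vector cells at 0 h, and 8 members differed by over 1. Itgb8, for example, measured 23 and 1.59 CPM there.

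Itga11 (chr9:62677826-62783982), a collagen receptor subunit, was the one member called higher in CL5 cells. It measured 0.848 and 0.414 CPM in vector and 37.6 and 16.2 in CL5 cells at 0 h (log2 fold change 5.43 ± 0.68, SE, adjusted p = 0.00771). At 24 h it measured 3.79 and 1.67 CPM in vector and 57.6 and 37.3 in CL5 cells (adjusted p = 0.0147). Itga10 measured 3.14 and 2.51 CPM in vector against 7.37 and 6.81 in CL5 cells at 0 h, and 23.3 and 12.7 against 99.3 and 70.4 at 24 h (log2 fold change 2.24 ± 0.34, adjusted p = 0.0163, not called). For both genes the CL5 libraries were above the vector libraries at both times. Itga6, a laminin receptor subunit, was lower in CL5 cells at 0 h, with 21 and 12.1 CPM against 95.6 and 82.3 (log2 fold change -2.43 ± 0.30, SE, adjusted p = 0.00739), and measured 25.8 and 25.6 against 75.8 and 64.9 CPM at 24 h (adjusted p = 0.0437). Itga7 measured 348 and 576 CPM in CL5 against 229 and 265 at 0 h and 797 and 877 against 666 and 672 at 24 h, with no call. Itga5 measured 239 and 294 CPM in CL5 against 366 and 419 in vector cells at 0 h and 217 and 269 against 335 and 348 at 24 h, with no call. Itga4 stayed at or under 1.09 CPM in all 8 libraries.

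Cdh11 (chr8:102632095-102785642) was nearly absent from the clone. It measured 1.7 and 1.73 CPM in vector and 0.126 and 0 in CL5 cells at 0 h (adjusted p = 0.0281) and 4.54 and 4.02 in vector and 0.0178 and 0 in CL5 cells at 24 h. The CL5 libraries at 24 h held at most 1 count each, so against a floor of 3 counts in each library Cdh11 was at least 44.7-fold lower (edgeR adjusted p = 0.00856). Cdh13 measured 72 and 56.5 CPM in CL5 against 91.8 and 77.3 at 0 h and 98.8 and 94.9 against 153 and 118 at 24 h, not called.

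Emb was lower in CL5 cells at 0 h, with 15.4 and 13 CPM against 58.9 and 49.8 (log2 fold change -1.94 ± 0.22, SE, adjusted p = 0.00511), and measured 9.3 and 10.1 against 29.4 and 27.1 CPM at 24 h (adjusted p = 0.0116). Alcam measured 33.5 and 24 against 82.1 and 94.5 CPM at 0 h and 15.4 and 11.3 against 41.7 and 48.6 at 24 h (adjusted p = 0.0205 and 0.016). The groups did not overlap at either time for Emb or Alcam. Itgb1bp2 measured 4.46 and 14.4 CPM in CL5 cells against 0.732 and 0.583 at 24 h (adjusted p = 0.0495), with the CL5 libraries far from each other. Itgb1 measured 1202 and 835 against 1142 and 1310.1 CPM at 0 h and 1216 and 1192 against 1260.1 and 1072 at 24 h. Sdc2 measured 864 and 1042 against 649 and 527, Cd44 454 and 415 against 804 and 744 and Bsg 606 and 866 against 409 and 424 CPM at 24 h, with no call.

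These counts depended strongly on the test and on single libraries. The shares of all genes called under these alternatives are not given here, so the counts in this paragraph are not read as results about the members. DESeq2 called 10 members at each time, with Alcam, Cdh11, Emb, Itga10, Itga11, Itga6 and Itgb3 called at both, Itga3, Itgb5 and Itgb7 at 0 h and Itgb1bp2, Itgb6 and Sdc1 at 24 h. The summed level of the differentiation genes was also higher in the CL5 than in the vector libraries at both times, as given above, and its part in these differences was not tested. Leaving out either CL5 library at 0 h left a lone library in that group. The edgeR counts were then higher than in the main fit at both times. With any of the other 6 libraries left out they were lower at both times.

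**Figure D5:**
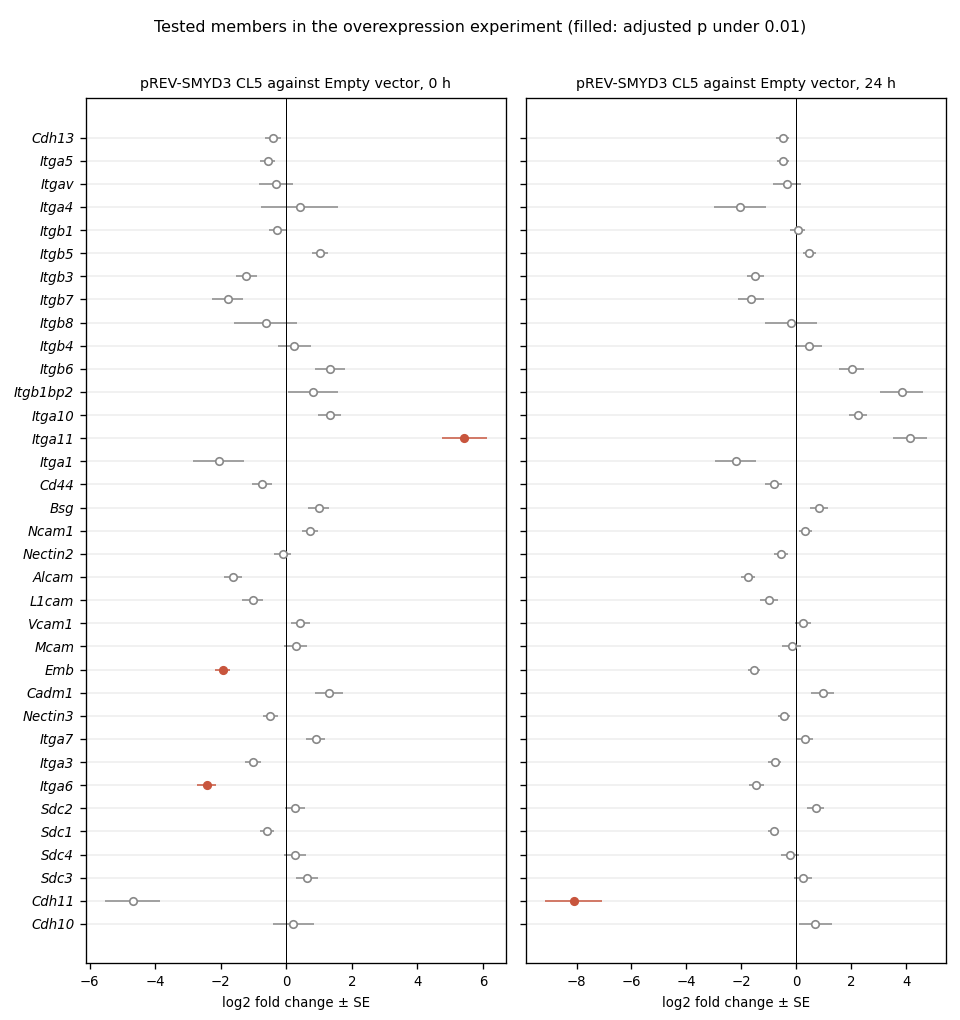
Log2 fold change ± SE of the 35 tested members in pREV-SMYD3 CL5 against Empty vector cells at 0 h (left) and 24 h (right), from edgeR with 2 libraries per group; filled points have an adjusted p under 0.01. Itga11 lies farthest right in both panels and Cdh11 farthest left, where CL5 cells held few or no counts and the fitted value is not a measured fold.

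Between 0 h and 24 h, edgeR called 0 of 35 members in vector cells and 0 in CL5 cells (background 0% in each). In vector cells 10 members and 1256 of all 17835 genes tested had an unadjusted p under 0.05 in edgeR. In CL5 cells these were 9 members and 1137 genes. DESeq2 called 2 members in each line: Itga10 and Itga7 in vector cells, and Itga10 and Sdc2 in CL5 cells. The interaction of line and time called 0 members in edgeR (background 0%) and 0 in DESeq2. There 2 members and 312 of all 17835 genes tested had an unadjusted p under 0.05 in edgeR. Without the first CL5 library at 0 h edgeR called 3 in CL5 cells, Itga10, Itgb8 and Sdc2. Itga7 went from 229 and 265 to 666 and 672 CPM in vector cells without overlap, and Alcam from 82.1 and 94.5 to 41.7 and 48.6.

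Over all comparisons edgeR called 24 members at least once and 13 of the tested members in none. These 13 were the alpha subunits Itga1, Itga5 and Itgav, the beta subunit Itgb6, the cadherins Cdh3 and Cdh10, the immunoglobulin-type receptors Bsg, Cadm1, Mcam, Nectin2 and Vcam1, and the syndecans Sdc1 and Sdc3. At the same threshold 9 of the 13 were called in some comparison under an alternative: Itgav, Itgb6 and Sdc1 in DESeq2, 7 with NucleoSpin libraries alone, 4 with all 26 libraries in 1 fit and 5 with no low-count filter. The other 4, Itga1, Cdh3, Cdh10 and Nectin2, had no call under these. Sdc1, an epithelial and plasma cell proteoglycan that myoblasts also carry, came closest, between siSMYD3#1 and siSMYD3#2 at 24 h (log2 fold change 0.37 ± 0.09, SE, adjusted p = 0.0114). Itgav, the alpha partner of beta3, beta5 and beta8, came next, with siSMYD3#2 against siCtrl at 24 h (log2 fold change 0.41 ± 0.10, SE, adjusted p = 0.0159). Vcam1, the counter-receptor of alpha4beta1, measured 46, 55.8 and 51.1 CPM in siCtrl at 0 h and 44.9, 35.3 and 36.8 at 24 h (adjusted p = 0.0182).

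The ligands and cytoplasmic partners of these receptors were read from lists of 12 and 33 genes. Of 12 integrin ligands 10 were tested in the siRNA experiment, and in siCtrl 2 rose and 1 fell between 0 h and 24 h (background 14.6% up and 14.8% down): Lama2, the laminin chain of muscle basement membrane, rose from 8.17, 6.88 and 7.77 to 47.2, 45.5 and 46.4 CPM (log2 fold change 2.61 ± 0.15, SE, adjusted p = 4.95e-10), fibronectin (Fn1) rose by 0.55 on the log2 scale, and osteopontin (Spp1) fell (log2 fold change -1.64 ± 0.16, SE, adjusted p = 4.25e-07). At 24 h, 1 ligand was higher and 2 were lower with siSMYD3#1 (background 2.91% higher and 2.94% lower), and 3 were higher and 1 was lower with siSMYD3#2 (background 1.66% higher and 2.04% lower). Lama2 was lower with siSMYD3#1 (log2 fold change -1.35 ± 0.14) and siSMYD3#2 (log2 fold change -0.86 ± 0.14), and Fn1 was higher with both (log2 fold change 0.77 ± 0.15 and log2 fold change 0.69 ± 0.15). Nidogen (Nid1), a basement membrane linker, was lower with siSMYD3#1 (log2 fold change -0.66 ± 0.11) and higher with siSMYD3#2 (log2 fold change 0.71 ± 0.11), and Spp1 was higher with siSMYD3#2 (log2 fold change 0.74 ± 0.15). Between the siRNAs Nid1 was lower (log2 fold change -1.37 ± 0.11) and the laminin chain Lamb2 higher (log2 fold change 0.56 ± 0.13) with siSMYD3#1 (background 1.31% lower and 2.05% higher). At 0 h Nid1 was the one ligand called with siSMYD3#1 (log2 fold change -0.86 ± 0.11, background 0.853% lower). Of 33 cytoplasmic partners 31 were tested, 3 rose and 0 fell in siCtrl over time, against the background given for the ligands: the adaptor Nedd9 (log2 fold change 0.61 ± 0.13, SE, adjusted p = 0.000812), plakoglobin (Jup, log2 fold change 0.54 ± 0.15, SE, adjusted p = 0.00941) and alpha-catenin (Ctnna1). At 24 h 2 partners were higher with siSMYD3#1 (background 2.91%), the actin crosslinker Actn1 and Tgfb1i1, and 1 with siSMYD3#2 (background 1.66%), Actn1. At 0 h 2 were lower with siSMYD3#1 (background 0.853%), Afdn and the paxillin gene Pxn. Between 0 h and 24 h 6 ligands rose and 1 fell with siSMYD3#1, and 7 partners rose and 0 fell (background 12.7% up and 12.7% down). With siSMYD3#2 3 ligands rose and 1 fell, and 1 partner rose and 1 fell (background 9.11% up and 9.88% down). The siSMYD3#1 interaction called Lama2 lower (background 0.215% in either direction), and Tgfb1i1 was higher with siSMYD3#1 than with siSMYD3#2 (background 2.05%). In CL5 cells 1 of 11 tested ligands, Lama2, was higher at 0 h (log2 fold change 3.7 ± 0.46, SE, adjusted p = 0.00782, background 0.465%).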

How the data were processed

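RNA-Seq libraries (polyA-selected, stranded, paired-end) of C2C12 cells were aligned by the authors to GRCm38 with HISAT2 2.1.0 and counted per gene with featureCounts (Subread 1.6.3), and FastQC 0.11.5 was used for quality control, per the submitters' processing notes. The authors deposited raw counts per Ensembl gene and library. The annotation release, strand setting and handling of reads with several matches were not given in the sources used here, so overlapping genes cannot be separated. Symbols, coordinates and exon lengths were taken from GENCODE M21.

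Counts were tested with the quasi-likelihood method of edgeR 4.0.16 in R 4.3.3, after its low-count filter and TMM scaling, with Benjamini-Hochberg adjustment over 15820 genes (siRNA, 18 libraries, extraction as covariate) or 17835 (overexpression, 8 libraries). The threshold was an adjusted p under 0.01. DESeq2 1.42.0, other scaling, filters, thresholds and models, and leaving out each library were alternatives. Backgrounds beside counts of calls are shares of all genes called in the main edgeR fit. The shares under an alternative are not given, so a count under an alternative has no background beside it. Total counts per library were 14315193 to 67853386. The scripts were tested on simulated data. In the siRNA experiment deviations of libraries with the same study replicate number from their group means correlated by 0.412 to 0.851, but by 0.017 to 0.177 within NucleoSpin libraries. Number 3 was the TRIzol library in each group, so the higher values cannot be told apart from the library sets.

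Values by library are given for members called with a log2 fold change of at least 1 in siCtrl over time, in an siRNA against siCtrl or in CL5 against vector, for the member with the highest level per length in each role group, and for members at no more than 3 counts in all libraries of 1 condition but 30 or more on average in another. Of ligands and partners, the 2 largest rises and falls in siCtrl are named. Other genes named beyond these rules were called members, or were chosen after their values were seen. The members and lists were chosen with earlier results of these data known.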

Additional observations from a re-analysis of the deposited data

Results flagged for a closer look

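For 6 members the effects of the 2 siRNAs at 24 h differed from each other in a direct test (edgeR's quasi-likelihood test, siSMYD3#1 against siSMYD3#2, 3 libraries each, adjusted over all genes tested). Of all genes tested, 2.05% were called higher and 1.31% lower with siSMYD3#1. Itgb4 differed by 2.02 on the log2 scale (adjusted p = 1.99e-05) and was the one member called in opposite directions against siCtrl. Itga10 differed by 1.92 (adjusted p = 0.000593). Cdh13 differed by 0.83 (adjusted p = 0.000195). Sdc2 differed by 0.66 (adjusted p = 0.00516). Itgb5 differed by 0.57 (adjusted p = 0.00295). Cd44 was lower with siSMYD3#1, with a difference of -0.44 (adjusted p = 0.00506). The differences of all 6 had the same sign in the TRIzol library and in the NucleoSpin libraries. Leaving out 1 library ended the call of Sdc2 for 7 libraries, of Itgb5 for 6 and of Cd44 for 5. With no extraction covariate Itga10, Cdh13, Sdc2, Itgb5 and Cd44 were not called.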

How the results depend on the processing

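The 65 member calls kept their direction in all 1575 values of the alternatives and stayed past the threshold in 1331. The alternatives refit the same libraries, so agreement in direction is not independent support. These totals include each fit with 1 library left out, and the alternatives differed widely. With no extraction covariate 13 calls stayed past the threshold and 48 did not. With all 26 libraries in 1 fit 38 stayed and 27 did not. In the TRIzol pair alone Itga4 went against its call with siSMYD3#1 over time (-0.99 on the log2 scale). It also did so with siSMYD3#2 against siCtrl at 24 h (0.16). Counts of called members moved by over 1.5 times as follows, and the causes were not tested. The shares of all genes called under these alternatives are not given, so the counts are not read as results about the members. With DESeq2, siSMYD3#2 against siCtrl at 24 h gave 8, siSMYD3#1 at 0 h 5, the siRNAs against each other 10, the siSMYD3#1 interaction 2, vector and CL5 over time 2 each, and CL5 against vector 10 at 24 h and 10 at 0 h. NucleoSpin libraries alone gave 9 for siSMYD3#2 at 24 h, 5 and 1 for siSMYD3#1 and siSMYD3#2 at 0 h, 14 between siRNAs, and 4 and 3 for the interactions. With no extraction covariate the counts over time were 5 in siCtrl, 4 with siSMYD3#1 and 2 with siSMYD3#2, those at 24 h 1 and 0, that of siSMYD3#1 at 0 h 0, and between siRNAs 1. All 26 libraries in 1 fit gave 5 and 0 at 24 h for siSMYD3#1 and siSMYD3#2, 0 for siSMYD3#1 at 0 h, 3 between siRNAs, 5 and 3 for vector and CL5 over time, and 14 and 16 for CL5 against vector at 24 h and 0 h. With no low-count filter, siSMYD3#2 at 24 h had 8, siSMYD3#1 and siSMYD3#2 at 0 h 5 and 2, the interactions 3 and 1, vector and CL5 over time 4 each, and CL5 against vector 10 and 9. At an adjusted p under 0.05 siSMYD3#2 over time had 14, siSMYD3#2 at 24 h 9, siSMYD3#1 at 0 h 5, between siRNAs 11, the siSMYD3#1 interaction 1, and CL5 against vector 7 and 5. RLE size factors gave 1 for siSMYD3#1 at 0 h. With the replicate block siSMYD3#1 at 0 h had 1 call; it also ended the Itgb4 and Sdc2 calls of siSMYD3#1 at 24 h and no other in the siRNA experiment. In the overexpression experiment these correlations ranged from -0.097 to 0.483. With 2 libraries per group both numbers give the same value, so pairing could not be judged, and the block gave 3 calls at 24 h.

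Leaving out 1 library gave 12 to 16 calls in siCtrl over time, 9 to 16 with siSMYD3#1, 6 to 10 with siSMYD3#2, 6 to 13 and 0 to 6 for siSMYD3#1 and siSMYD3#2 at 24 h, 0 to 3 and 0 to 0 at 0 h, 3 to 8 between siRNAs, 0 to 1 and 0 to 0 for the interactions, 0 to 0 in vector and 0 to 3 in CL5 over time, 0 to 10 and 0 to 12 for CL5 against vector at 24 h and 0 h, and 0 to 0 for its interaction. With 2 libraries per group a lone library left in a group was assumed to vary like the others. Genes at a few counts per library, among them Cdh1 and the 7 untested members, were limited by depth.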
